A study of Mus musculus with 66 samples.

Results

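The baseline transcriptome described here is that of wildtype E14 cells, a line of mouse embryonic stem cells, measured in the 3 wildtype RNA libraries out of 66 samples in the series. These are every wildtype RNA library, chosen by their label, and they stand beside 4 RNA libraries from cells with a G4 (G-quadruplex) deletion at Praf2 that are not used here. The study addresses how R-loops and the G-quadruplexes within them relate to CTCF binding. The cells were labelled wildtype and untreated, and grew in DMEM with 15% fetal bovine serum, leukaemia inhibitory factor (LIF) and inhibitors of GSK at 3 µM and of MEK at 1 µM. Total RNA was cleared of DNA and of ribosomal RNA before directional libraries were prepared. Each table covers 55487 gene identifiers, of which 24918 had a count in at least 1 of the 3 libraries. The labels do not say whether the 3 replicates are separate cultures, so the spread between them may be technical.

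Embryonic stem cells keep the pluripotency of the early epiblast through a transcription factor circuit around Pou5f1, Sox2 and Nanog. LIF acts through the receptor pair Lifr and Il6st on Stat3, inhibition of GSK releases beta-catenin from degradation, and inhibition of MEK blocks the ERK signal that cells themselves evoke with Fgf4. Cells held by these agents are said to be naive, in contrast to the formative and primed states that follow implantation.

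The libraries held 13360009, 15780833 and 18549005 expected counts in replicates 1, 2 and 3. Levels of different genes are given as TPM, a share of all transcripts that corrects for gene length. A gene was called detected at a TPM of at least 1 in all 3 libraries. By that rule 11338 of 55487 identifiers were detected, and 30569 had no count in any library. Among nuclear protein-coding genes 9840 of 21391 were detected (46.0%), with a median of 10.3 TPM among those detected and of 0.607 TPM over all of them. Only 15 coding genes reached 1000 TPM, 480 lay from 100 to 1000 TPM and 4526 from 10 to 100 TPM. Coding genes listed at 0 TPM in every library numbered 5433, of which 5399 had no count in any library. A count of 0 allows up to 3 counts, or 0.225, 0.190 and 0.162 CPM (counts scaled to a common depth) in replicates 1, 2 and 3, for counting error only.

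The defining markers of embryonic stem cells were all present. Nanog stood at 368, 312 and 316 TPM in replicates 1, 2 and 3, the highest of the core factors. Pou5f1, the POU factor without which pluripotency is lost, had 242, 195 and 209 TPM. Sox2, its DNA-binding partner, had 52.6, 45.8 and 51.0 TPM. The replicate ranges of these genes did not overlap, so the order Nanog, Pou5f1, Sox2 held in every library. Esrrb, an orphan nuclear receptor, had 133, 109 and 107 TPM, and Zfp42, a zinc finger gene long used as a stem cell marker, had 75.0, 62.4 and 67.5 TPM. Replicate 1 was the highest for each of these markers on the TPM scale. After scaling of counts, the 3 core factors had a median coefficient of variation of 3.54% over the replicates.

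Of 24 genes of the naive state, 23 were detected, with a median of 41.3 TPM. Dppa5a, an RNA-binding protein of the early embryo, led them at 997, 857 and 905 TPM and was among the 20 coding genes of highest level in the whole transcriptome. Tdh, the threonine dehydrogenase on which mouse stem cells rely for one-carbon units, followed at 289, 244 and 244 TPM. Tfcp2l1 (158, 132 and 127 TPM), Klf2 (71.4, 58.1 and 62.9 TPM), Tbx3 (48.6, 40.2 and 41.4 TPM) and Prdm14 (8.86, 8.20 and 8.06 TPM) covered the range of the transcription factors. Dppa3, a maternal factor of early embryos and germ cells, was the member that was not detected, at 0.50, 0.39 and 0.81 TPM.

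Formative and primed genes were detected in 9 of 18 cases, with a median of 1.16 TPM. Those detected were led by the Nodal antagonists Lefty2 (62.5, 49.8 and 56.1 TPM) and Lefty1 (18.4, 15.2 and 17.0 TPM). The de novo DNA methyltransferase Dnmt3b had 20.1, 18.8 and 17.1 TPM, and Otx2, a homeodomain factor of the formative state, had 2.79, 2.01 and 2.04 TPM. Fgf5 and Pou3f1, which mark the epiblast after implantation, had means of 0.00667 and 0.0833 TPM. Cer1 was listed at 0.

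Markers of other cells were mostly below detection. None of 18 genes of the 2-cell-like state was detected, and the highest of them, Zscan4f, had 0.580, 0.680 and 0.390 TPM. Among 17 primitive endoderm genes 3 were detected, of which Sparc, a secreted matrix protein that other cells also make, had 74.2, 63.7 and 58.0 TPM. The lineage's defining factors Gata6, Sox17 and Gata4 had means of 0.0300, 0.0600 and 0.207 TPM. Of 14 mesendoderm genes, Cdx1 alone was detected, at 11.0, 9.53 and 7.94 TPM, while the founder gene Mixl1 had a mean under 1 TPM. Cdx1 is also a direct target of Wnt signalling. In neuroectoderm 2 of 15 were detected, Tubb3 (18.6, 16.2 and 14.2 TPM) and Nes (1.99, 1.91 and 1.51 TPM), and Pax6 had a mean of 0.0333 TPM. Among 16 trophoblast genes, Tead4, Tfap2c and Gata2 were detected, whereas Cdx2 had 0.660, 0.530 and 0.350 TPM and Elf5 a mean of 0.0667 TPM.

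Cells that a culture might carry along were sought in the same way. Of 16 fibroblast genes, only Fn1 (269, 222 and 217 TPM) and Vim (128, 114 and 115 TPM) were detected. Both are also made by many epithelial and embryonic cells, and the fibroblast collagens Col1a1 and Col1a2 had means of 0.083 and 0.010 TPM, while Col3a1, Dcn and Postn were listed at 0. In the blood list Cd68, a lysosomal protein, was the 1 gene of 12 that was detected (17.3, 14.8 and 12.9 TPM). Neither liver (8 genes), muscle (10) nor neuron genes (10) had a detected member. On the rescaled TPM described below, 4 neuron genes, 1 muscle gene and no liver gene passed 1 TPM in all 3 libraries. Alb, Myod1 and Ckm were listed at 0. In bulk RNA, few cells at a high level and many cells at a low level cannot be told apart.

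**Figure D1:**
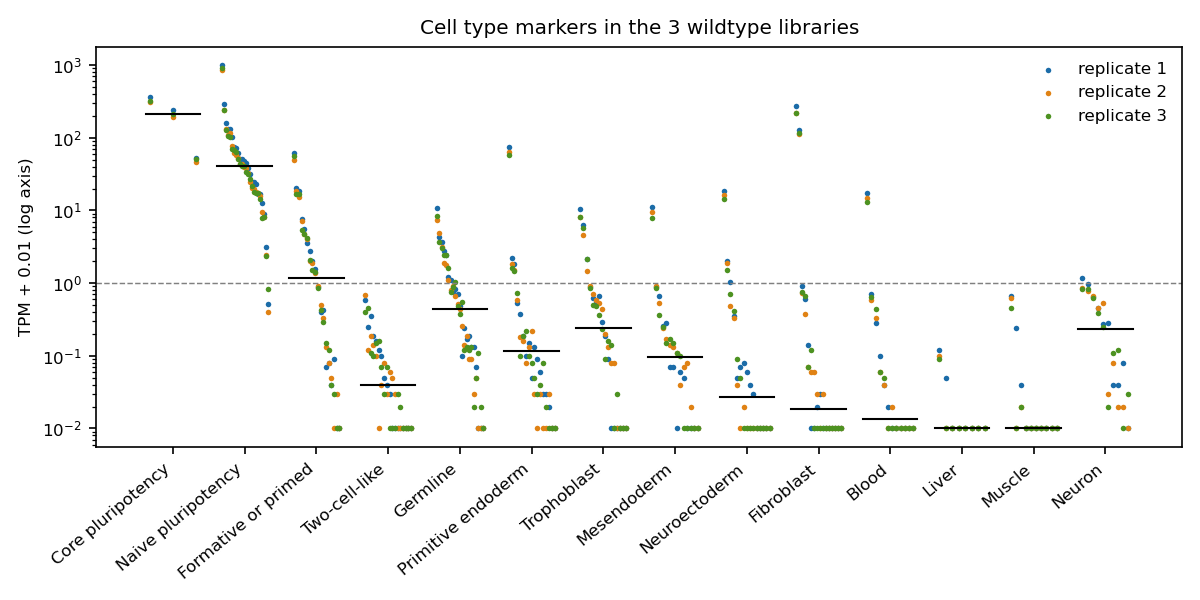
Each point is 1 gene in 1 of the 3 wildtype replicates, as TPM plus 0.01 on a log axis, with the genes of each list ordered by their mean; black bars are list medians of the mean TPM and the dashed line is 1 TPM. The core and naive pluripotency lists have medians of 215 and 41.3 TPM, and the lists of other cell types lie mostly under the line.

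Germline genes were detected in 6 of 21 cases. Tex19.1, which restrains transposable elements, was the highest at 11.0, 7.44 and 8.50 TPM, followed by the RNA-binding protein Dazl at 4.25, 4.86 and 3.63 TPM. Dnd1, Nanos3, Mael and Hormad1 were the other members detected. Ddx4, the vasa helicase of germ cells, reached 0.740, 0.910 and 0.880 TPM. The meiotic gene Stra8 had a mean of 0.153 TPM.

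The LIF pathway was expressed from receptor to target, with 12 of 14 genes detected and a median of 10.03 TPM. Its receptor subunits were unequal on the TPM scale, with Lifr at 15.8, 15.1 and 14.4 TPM and Il6st at 56.0, 40.1 and 32.1 TPM. The signal transducer Stat3 had 26.6, 22.7 and 19.6 TPM, and its feedback target Socs3, an inhibitor of the receptor, had 8.73, 7.80 and 9.39 TPM. The cytokine gene Lif itself was at 0.540, 1.14 and 1.45 TPM and did not meet the rule in replicate 1. The counts of Il6st spread far less than its TPM, with a coefficient of variation of 1.70% after scaling.

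In the Wnt pathway 19 of 34 components were detected, with a median of 5.0 TPM. Ctnnb1, which encodes beta-catenin, stood at 300, 256 and 244 TPM, ahead of Csnk1a1, a kinase of its destruction complex, at 142, 119 and 113 TPM. Both kinases that the inhibitor in the medium acts on were present, Gsk3a at 39.8, 31.6 and 31.0 TPM and Gsk3b at 23.9, 18.8 and 19.6 TPM. Tcf7l1, the repressor among the TCF factors in these cells, had 48.2, 39.2 and 36.6 TPM, above Tcf7 at 15.5, 13.4 and 12.4 TPM, and Lef1 was at 0.41, 0.32 and 0.28 TPM. None of the 6 Wnt ligands listed was detected. Of 17 Wnt targets, 7 were detected, among them the feedback gene Axin2 (7.07, 5.01 and 4.74 TPM), the Wnt deacylase Notum (11.3, 11.5 and 9.03 TPM) and Znrf3 (7.32, 6.40 and 5.81 TPM). Lgr5, Dkk1 and T had means of 0.0133, 0.117 and 0.107 TPM.

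Of 26 FGF ligands and receptors, 3 were detected. Fgf4, the autocrine ligand of stem cells, had 91.5, 76.0 and 75.0 TPM, and its receptor genes Fgfr1 and Fgfr2 had 16.08, 13 and 13.23 TPM and 2.06, 1.28 and 1.16 TPM. All 18 genes of the RAS and ERK cascade were detected, with a median of 21.4 TPM. The target kinases of the inhibitor, Map2k1 and Map2k2, had 29.6, 26.3 and 29.6 TPM and 22.8, 18.3 and 19.6 TPM. The genes that ERK signalling induces were uneven, with 12 of 21 detected. Etv5 had 75.0, 64.2 and 66.2 TPM and Spry2, a feedback inhibitor, 18.1, 16.5 and 14.8 TPM. The phosphatase gene Dusp6 had 4.78, 3.70 and 3.53 TPM. The immediate early genes Fos and Egr1 had means of 0.220 and 0.0633 TPM. No sample without the inhibitors is described here, so these levels have no control.

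Of 31 Nodal and BMP genes, 25 were detected. The co-receptor Tdgf1 was the highest at 390, 349 and 373 TPM, and the ligands Gdf3 and Nodal had 47.6, 37.8 and 39.6 TPM and 15.4, 11.7 and 13.6 TPM. Bmp4 had 8.41, 3.22 and 4.86 TPM from 69, 74 and 106 counts. The BMP targets Id1, Id2 and Id3 lay between 1.18 and 2.00 TPM. Tgfbr2, the type II receptor for TGF-beta, had a mean of 0.107 TPM, whereas Acvr2b, which serves Nodal, had 3.93, 2.92 and 3.08 TPM. In the Notch list 7 of 14 genes were detected, with the nuclear effector Rbpj (80.1, 63.8 and 59.8 TPM) far above the receptor gene Notch1 (10.7, 7.67 and 6.22 TPM). In the interferon list 11 of 25 were detected. Those included the sensing and signalling genes Mavs (39.0, 33.4 and 28.4 TPM) and Stat2 (8.36, 7.76 and 7.56 TPM). The induced genes Ifit1 and Rsad2 each had a mean of 0.00333 TPM, and Isg15, Irf7 and the ligand gene Ifnb1 were listed at 0. Oas1a, also an induced gene, was an exception at 12.8, 10.4 and 12.1 TPM.

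Transcription factor families were used unevenly. In the KLF family 14 of 17 members were detected, led by Klf2 and Klf5 (61.4, 52.5 and 50.9 TPM) and with Klf4 at 31.9, 24.8 and 26.8 TPM. By contrast 5 of 19 SOX genes and 4 of 15 POU genes were detected. After Sox2 the next SOX gene was Sox13 at 8.76, 7.19 and 7.20 TPM, and after Pou5f1 the next POU gene was Pou2f1 at 35.3, 25.4 and 26.7 TPM. Gata2 was the 1 GATA gene of 6 that was detected, at 2.15, 1.48 and 2.11 TPM. In the MYC network the partners Mga (91.7, 73.1 and 71.7 TPM) and Max (59.98, 43.99 and 47.22 TPM) stood above the proto-oncogenes Mycn (12.8, 9.62 and 12.8 TPM), Mycl (11.99, 10.31 and 9.92 TPM) and Myc (3.57, 3.16 and 3.23 TPM). The ranges of Mycn and Mycl overlapped, and Myc lay below both in every library. Of 39 Hox genes 2 were detected, the higher being Hoxb9 at 2.56, 1.86 and 1.44 TPM. Genes with a Zfp symbol, mostly zinc finger genes, were detected in 302 of 393 cases, with a median of 3.70 TPM over all of them.

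Chromatin regulators were nearly all expressed. In the Polycomb list 28 of 31 genes were detected, with a median of 18.7 TPM. Of the core of PRC2, the complex that methylates histone H3, Suz12 had 186, 161 and 153 TPM, Eed 145, 127 and 128 TPM and the catalytic Ezh2 63.5, 58.6 and 53.4 TPM, whereas its paralog Ezh1 had 9.27, 8.38 and 8.05 TPM. The order Suz12, Eed, Ezh2, Ezh1 held without overlap of the ranges. Among the CBX readers Cbx7 (24.6, 20.9 and 19.5 TPM) exceeded Cbx6 and Cbx2, and Cbx8 had a mean of 0.120 TPM. The ubiquitin ligase gene Rnf2 had 40.5, 33.6 and 35.4 TPM, and its paralog Ring1 had 1.00, 1.16 and 1.07 TPM.

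For DNA methylation 15 of 17 genes were detected. Tet1 and Tet2, which oxidise methylated cytosine, had 163, 143 and 142 TPM and 102, 76.8 and 70.9 TPM, and Tet3 had 0.530, 0.460 and 0.370 TPM. The maintenance pair Uhrf1 and Dnmt1 had 115, 94.8 and 92.4 TPM and 38.2, 34.0 and 32.9 TPM. Dnmt3l and Dnmt3b were close, at 24.7, 22.6 and 19.8 TPM and 20.1, 18.8 and 17.1 TPM. Their ranges overlapped, though Dnmt3l was the higher within each library. Dnmt3a was lower at 7.56, 7.20 and 5.29 TPM. Trim28, the corepressor recruited by zinc finger proteins to silence transposable elements, had 1572, 1153 and 1079 TPM and ranked among the 20 coding genes of highest level. All 16 genes of the heterochromatin list were detected, and so were all 24 enzymes and subunits that set or remove methyl or acetyl groups on histone H3.

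The study's title concerns CTCF, R-loops and G-quadruplexes. Ctcf, which encodes the insulator protein, had 39.3, 33.6 and 31.6 TPM, while its germline paralog Ctcfl had a mean of 0.0367 TPM. Of 22 CTCF and cohesin genes 19 were detected. The cohesin core genes Rad21 (60.6, 53.7 and 52.9 TPM), Smc3 (19.04, 15.38 and 18.41 TPM) and Smc1a (16.9, 13.5 and 14.9 TPM) were unequal, with Rad21 above the others in every library. The unloader Wapl had 51.4, 44.8 and 42.6 TPM and the loader Nipbl 17.9, 13.7 and 13.4 TPM. Stag1 (40.3, 32.1 and 31.4 TPM) exceeded Stag2 (9.85, 7.28 and 8.78 TPM). The meiotic subunit genes Smc1b and Rad21l had means of 0.19 and 0.020 TPM.

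All 33 genes of the list of R-loop and G-quadruplex factors were detected, with a median of 37.4 TPM. The helicase gene Dhx9 had 188, 156 and 150 TPM, and Dhx36, which unwinds G-quadruplexes, had 29.9, 24.2 and 25.2 TPM. Rnaseh1, a nuclease for RNA in hybrids, had 2.90, 2.80 and 3.29 TPM, below each of the RNase H2 subunit genes Rnaseh2a (36.2, 27.5 and 30.4 TPM), Rnaseh2b (43.8, 38.5 and 33.6 TPM) and Rnaseh2c (16.49, 13.36 and 13.98 TPM). Atrx, a remodeller that binds repeats able to form G-quadruplexes, had 76.7, 36.4 and 46.2 TPM and is the 1 gene of this list whose counts were past the replicate fold defined below. Praf2, the gene at the deletion in the other RNA samples, had 16.9, 14.8 and 15.9 TPM in these wildtype cells. Praf2 is at chrX:7728571-7731063 (GRCm38) and was added to the genes named after its value was seen.

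Growth-related lists were expressed almost throughout. All 37 replication genes and all 41 DNA repair genes were detected, with medians of 28.5 and 15.4 TPM. The clamp gene Pcna had 142, 133 and 146 TPM. Of the MCM helicase, Mcm3 had 140, 107 and 104 TPM and Mcm6 83.8, 74.3 and 70.7 TPM. Among repair genes the endonuclease Apex1 led at 198, 161 and 151 TPM, and the mismatch factor Msh6 had 102, 86.8 and 83.9 TPM. Of 35 cyclins, kinases and their regulators 30 were detected. Cdk4 (363, 296 and 292 TPM) and Ccnb1 (238, 204 and 204 TPM) were the highest. Of the D cyclins, Ccnd3 (66.8, 55.9 and 56.5 TPM) exceeded Ccnd1 (20.6, 19.9 and 16.7 TPM), and Ccnd2 had a mean of 0.0900 TPM. Trp53 had 155, 123 and 127 TPM, its ligase Mdm2 31.1, 26.9 and 26.6 TPM and its target Cdkn1a 19, 17 and 18 TPM.

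Most of the coding genes of highest level belonged to protein synthesis, folding and the cytoskeleton. Eef1a1, the elongation factor that brings transfer RNA to the ribosome, was the highest at 8522, 7017 and 6549 TPM. Actb had 2193, 1671 and 1636 TPM, the ribosomal protein gene Rpsa 2091, 1610 and 1601 TPM and the chaperone gene Hspa8 1868, 1598 and 1434 TPM. Actb, Rpsa and Hspa8 overlapped in their ranges, though they kept that order within each library, and Eef1a1 lay above them all. The chaperones Hsp90ab1 and Hsp90aa1, the antioxidant enzyme Prdx1, the tubulin gene Tuba1b and the nucleolar protein gene Npm1 also had means over 1000 TPM. In contrast the heat-inducible Hspa1a had a mean of 0.117 TPM. Ribosomal protein genes were detected in 85 of 87 cases, with a median of 229 TPM over all of them. Reads of ribosomal protein genes can be shared with their many pseudogenes, so single low members such as Rps3a1, with a mean of 7.55 TPM, are uncertain.

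Energy metabolism was represented by isoform genes. In glycolysis 24 of 33 genes were detected. Pkm (782, 704 and 716 TPM), Gapdh (692, 615 and 707 TPM) and Aldoa (542, 467 and 501 TPM) led. The sperm genes Gapdhs and Pgk2 were listed at 0, and so were Slc2a2, a glucose transporter of liver and beta cells, and the hexokinase gene Hk3. The glucose transporter Slc2a3 (271, 232 and 243 TPM) exceeded Slc2a1 (78.5, 67.8 and 81.6 TPM), and the hexokinase gene Hk2 (63.2, 57.9 and 52.8 TPM) exceeded Hk1 (9.38, 8.82 and 9.26 TPM). Eno1b (487, 425 and 492 TPM) is a copy of Eno1 (324, 265 and 256 TPM), so the division of reads between them is uncertain. In the citric acid cycle 25 of 26 genes were detected, the testis gene Pdha2 being the other. All 36 subunit genes of respiratory complex I in the family defined by symbol were detected, and the coactivator Ppargc1a was listed at 0. In cholesterol synthesis 24 of 25 were detected, from Fdps (78.1, 60.5 and 68.0 TPM) down to Pmvk (2.07, 2.52 and 2.94 TPM).

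**Figure D2:**
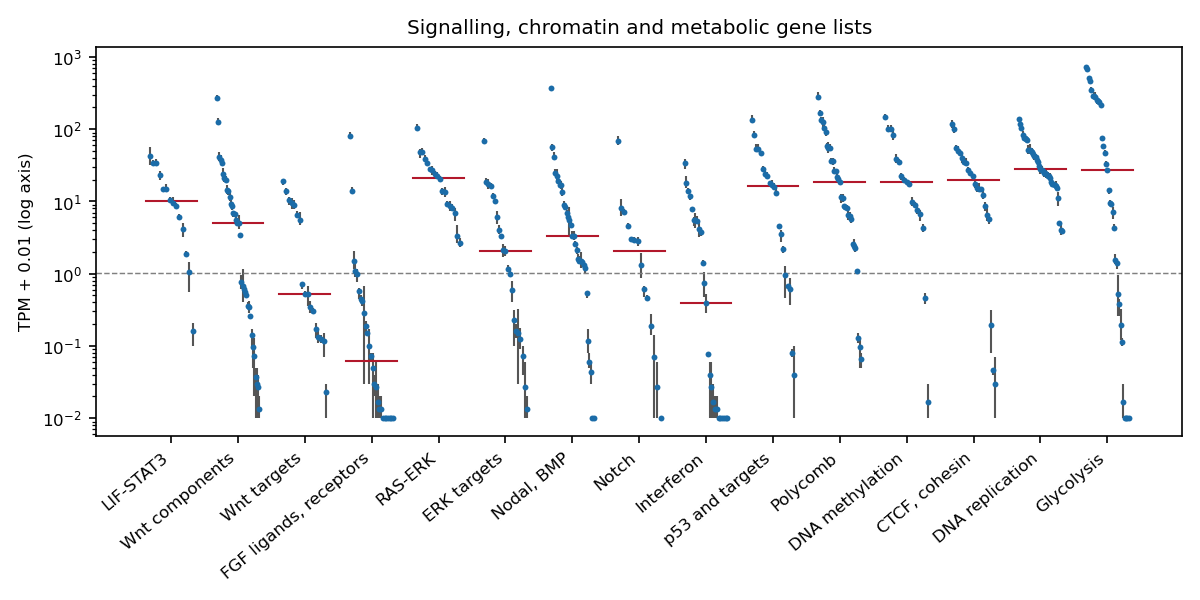
Points are the mean TPM of each gene over the 3 wildtype replicates plus 0.01 on a log axis, grey lines run from the lowest to the highest replicate, red bars are list medians and the dashed line is 1 TPM. The replication list, with a median of 28.5 TPM, lies wholly over the line, whereas FGF ligands and receptors fall mostly under it.

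Among adhesion genes the epithelial cadherin stood above the neural. Cdh1, the cadherin of epithelia, had 50.5, 42.8 and 44.5 TPM and Cdh2, the neural cadherin, 2.19, 1.70 and 1.76 TPM. Of the laminins, Lamc1 had 129, 104 and 94.8 TPM and Lama1 and Lama5 overlapped at 10.4, 8.74 and 8.07 TPM and 11.7, 8.62 and 9.10 TPM, while Lamb1 had 1.83, 1.49 and 1.46 TPM. The lamin gene Lmna had 0.960, 0.760 and 0.650 TPM and was not detected, whereas Lmnb1 had 49.1, 40.8 and 45.2 TPM. Keratin genes were detected in 1 of 49 cases, Krt42.

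Genes of the X chromosome had a lower share detected than autosomal genes, 314 of 921 coding genes (34.1%) against 9521 of 20218 (47.1%). Among detected genes the medians were 9.18 TPM for X and 10.4 TPM for autosomes, whose single chromosomes ranged from 9.09 to 13.1 TPM. Xist, the RNA that silences an X chromosome in females, had a mean of 0.0233 TPM. Its antisense gene Tsix had 8.34, 3.94 and 4.14 TPM. The strand setting of the counting is not known here, so reads of Tsix and of other antisense genes such as Kcnq1ot1 may include those of the genes they overlap. On the Y chromosome 4 of 251 coding genes were detected. These were Eif2s3y (43.3, 36.0 and 38.0 TPM), Uty (28.6, 18.6 and 22.0 TPM), Ddx3y (15.0, 10.8 and 11.5 TPM) and Uba1y (1.43, 1.04 and 1.34 TPM). Their X-linked partners Eif2s3x (113, 93.1 and 95.0 TPM), Ddx3x (93.0, 77.0 and 82.5 TPM) and Uba1 (178, 141 and 136 TPM) were higher in every library. Kdm6a, the partner of Uty, had 30.4, 22.9 and 21.5 TPM, a range that overlapped that of Uty. Kdm5d had a mean of 0.00667 TPM, against 29.8, 25.9 and 24.8 TPM for Kdm5c on X.

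Of 42 imprinted genes 25 were detected. The maternally expressed RNAs of the Dlk1 and Meg3 domain were present, Rian at 252, 191 and 196 TPM, Meg3 at 37.3, 31.4 and 32.6 TPM and Mirg at 19.5, 18.5 and 18.2 TPM, while the paternally expressed Dlk1 and Rtl1 of that domain had means of 0.0667 and 0.00333 TPM. In the Igf2 domain Igf2 had 1.87, 1.43 and 1.45 TPM and H19 a mean of 0.0633 TPM. Among long non-coding RNAs, Malat1 was the highest at 575, 453 and 446 TPM. Lncenc1, a stem cell RNA, had 196, 172 and 155 TPM, and Firre, Neat1 and Tug1 were detected. Hotair and Hottip were listed at 0. As a class, 198 of 4588 long non-coding genes were detected.

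Families of specialised receptors and structural proteins stayed near 0. Of 1097 olfactory receptor genes 5 were detected and 972 had no count. The highest, Olfr836 and Olfr837, had 8.02, 2.80 and 2.71 TPM and 5.08, 1.82 and 1.31 TPM, with replicate 1 above the others in both. None of 207 Vmn1r and 120 Vmn2r vomeronasal receptor genes, 15 Taar genes or 21 Lce genes was detected. Protocadherin genes of the alpha and beta clusters were undetected (0 of 14 and 0 of 22), while 3 of 21 in the gamma cluster were detected, led by Pcdhgc3 at 4.0, 3.4 and 3.2 TPM. The gamma cluster was not near 0, since all 21 genes had counts, with a median of 0.64 TPM. On the rescaled TPM described below 18 of 21 passed. The highest members had counts that were not whole, so the division of reads between them is uncertain.

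The makeup of a library depended on the scale on which it was read. Protein-coding genes other than those of ribosomal proteins, histones and the mitochondrial genome took 78.4%, 79.0% and 77.7% of counts in replicates 1, 2 and 3, but 28.4%, 23.5% and 23.3% of TPM. The class of short structural RNAs took 5.15%, 5.48% and 6.32% of counts but 54.6%, 63.1% and 62.2% of TPM. In replicate 2 the class includes Rny3 at 116850 TPM, a gene listed at 0 TPM in replicates 1 and 3. The TPM share of the class in replicate 2 thus rests partly on 1 gene. This class holds small RNAs of splicing and RNA processing and also other non-coding genes of under 350 bases, such as Gm28438, a nuclear copy of mt-Nd3. Setting aside the classes of short structural and mitochondrially encoded RNAs would multiply all other TPM values by 2.54, 3.10 and 3.04. Nuclear copies of mitochondrial genes in other classes, such as Gm28661 with a mean of 8947 TPM, were kept in for these factors. Replicate 1 has the smallest of these factors and the smallest share of short structural RNA, and it was the highest for each of the 20 coding genes of highest mean TPM. With TPM rescaled in this way, 11025 coding genes pass 1 TPM in all 3 libraries. Every list of other cell types except liver then gains members. Trophoblast has 7 of 16, germline 11 of 21, mesendoderm 3 of 14 and the 2-cell-like state 1 of 18. FGF ligands and receptors have 8 of 26. Absence of a gene by the 1 TPM rule thus depends on the scale.

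**Figure D3:**
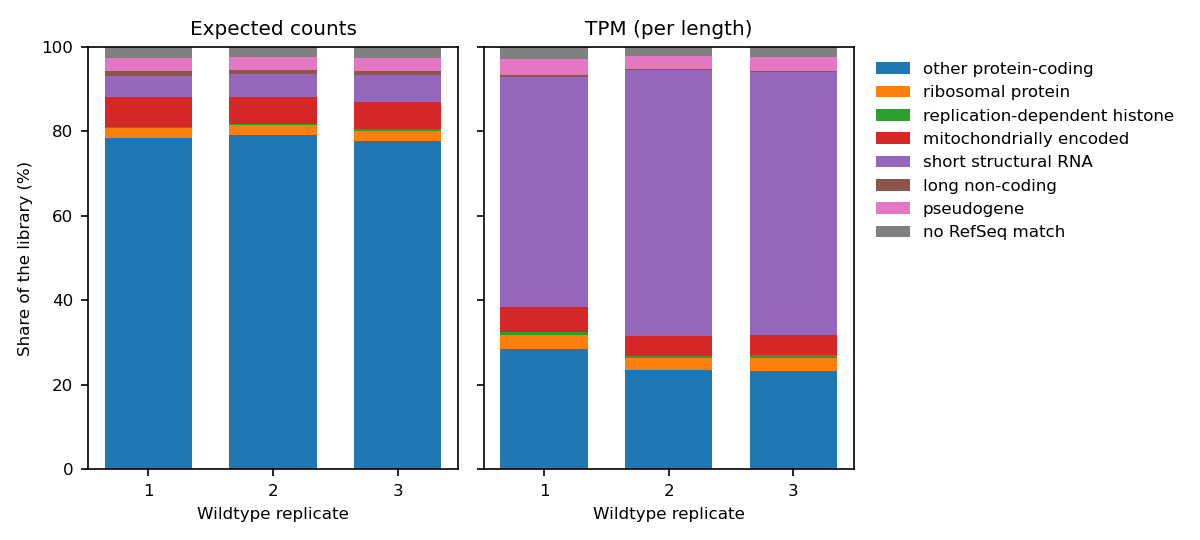
Stacked bars give the share of each gene class in the 3 wildtype replicates, of expected counts on the left and of TPM on the right, both in percent of the library. Short structural RNA fills 5.15% to 6.32% of counts and 54.6% to 63.1% of TPM. The 63.1% is that of replicate 2, where Rny3 alone has 116850 TPM.

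Rn7sk, the RNA that holds back the elongation factor P-TEFb, was the non-coding RNA of highest mean TPM, at 80050, 63689 and 72456 TPM. The RNA of RNase MRP, Rmrp, had 19450, 14265 and 17013 TPM. The U2 genes Rnu2-10, Gm23849 and Gm24950 held identical values, and so did Rnu3b1, Rnu3b2, Rnu3b3 and Rnu3b4 of the U3 family, so such copies cannot be told apart. The Y RNA gene Rny3 is an example of a gene too short for its TPM to be read. It had 831, 3386 and 4715 counts but 0, 116850 and 0 TPM, and its deposited effective length was above 0 in replicate 2 only. Rny1, another Y RNA, had 122, 638 and 1784 counts and differed 10.6-fold after scaling between the lowest and highest replicate.

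The mitochondrial genome was assigned 6.89%, 6.30% and 6.30% of counts. mt-Co1, a subunit of cytochrome oxidase, was the highest of its genes at 14953, 11688 and 12109 TPM. Several mitochondrial genes have near-identical copies in the nuclear genome, which were named here after their values were seen. The copies Gm28661 and Gm10925 received between 88.6% and 91.7% of the counts shared out between them and mt-Atp6, and Gm10222 received 88.1% to 93.6% of those with mt-Nd4l. The 7 copies examined held 2.25% to 2.55% of all counts. Levels of these mitochondrial genes, and the share of counts from the mitochondrial genome, are therefore uncertain.

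The replicates were close to each other. Spread was measured on counts scaled to a common depth by TMM, for the 11265 genes with a mean of at least 50 counts. The median gene had a coefficient of variation of 5.16% and a highest replicate 1.104-fold above its lowest, and 48.1% of genes stayed under 1.1-fold. A gene was past the fold where the highest replicate was at least 1.5-fold above the lowest. There were 426 such genes, 3.78% of those measured, and 115 passed 2-fold. The common biological coefficient of variation estimated by edgeR was 0.0645. The share differed with depth, with 14.6% of genes with 50 to 100 counts past the fold, 1.08% of genes with 1000 to 3000 counts and 3.64% (6 of 165) of genes with 10000 counts or more. Across genes, the log2 CPM of replicate pairs had a Pearson r of 0.990 to 0.993. These are correlations over genes of whole libraries, and genes are not independent replicates.

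Genes of lowest spread came from several processes. Among genes with a mean of at least 1000 counts, Mcm2 of the replicative helicase had 351.3, 351.7 and 350.9 CPM, a coefficient of variation of 0.117%. Polr3f, a subunit of RNA polymerase III, the fatty acid synthase gene Fasn and the co-chaperone gene Stip1 also lay at or under 0.206%. These are the lowest values of a ranking over only 3 libraries. The variance of the counts over their mean was 0.0083 for Mcm2 and 0.0026 for Polr3f, far below that of counting error alone. Such values therefore do not measure how stable these genes are. The commonly used reference genes Gapdh and Actb differed 1.163-fold and 1.019-fold between their highest and lowest replicates.

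Gene classes differed in how many members were past the fold. It was 186 of 9935 other coding genes and 1 of 85 ribosomal protein genes, but 15 of 59 histone genes, 49 of 120 short structural RNAs, 105 of 364 pseudogenes and 5 of 15 mitochondrially encoded genes, beside 3.78% over all genes. Replication-dependent histone genes were highest in replicate 3 in 56 of 59 cases, against 4123 of 11265 genes of all classes, with a median deviation from the gene's own mean of +0.23 on the log2 scale there and of -0.10 in each of the others. Hist1h4a, for example, had 66.6, 58.3 and 90.7 CPM. Together the histone genes took 0.388%, 0.384% and 0.462% of counts, a sum that does not depend on how reads were divided among near-identical copies. Ribosomal protein genes were also highest in replicate 3, in 71 of 85 cases, by a median of +0.08. Short structural RNAs were lowest in replicate 1 in 98 of 120 cases, against 4176 of 11265 genes of all classes. These shifts are within 1 group of 3 libraries, and what they moved with was not tested.

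Many genes past the fold had counts that were not whole. Of the 426 genes past the fold 237 had a count that was not whole in at least 1 library, as arises when a read is divided between genes, against 2269 of all 11265 (a count within 0.005 of an integer was taken as whole). Among the 15 genes of largest ratio, Gm12184, Gm14760 and Gm20784 had counts of 149 or more in replicates 1 and 3 and of 0 in replicate 2. Rps2-ps13, a pseudogene of Rps2, had 191, 0 and 3.73 counts. The zinc finger gene Zfp968 had 4.07, 57.4 and 97.6 counts. Ribosomal RNA left after depletion varied as well, with 115, 10 and 31 counts of mt-Rnr1 and 271, 32 and 36 counts of mt-Rnr2, the mitochondrial ribosomal RNAs. CT010467.1, which had 1974, 170 and 267 whole counts, was likewise highest in replicate 1.

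Among the genes of the lists, some non-coding RNAs and a few coding genes were past the fold. Of those with at least 50 counts on average, Kcnq1ot1, an imprinted nuclear RNA, had 6018, 3195 and 4081 counts and differed 2.24-fold after scaling, with replicate 1 the highest. Tsix differed 1.73-fold and Atrx, with 6195, 4378 and 6683 counts, 1.68-fold, and both were highest in replicate 1 too. Snhg14 had 121, 128 and 283 counts and was highest in replicate 3. Most of the 66 lists, the core, naive and primed pluripotency lists among them, had no measured member past the fold, beside 1.87% of other coding genes. These pluripotency lists had 3, 23 and 11 measured members, too few for their lack of such genes to be read against that share. Of the genes that ERK signalling induces, 2 of 12 measured were past the fold.

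**Figure D4:**
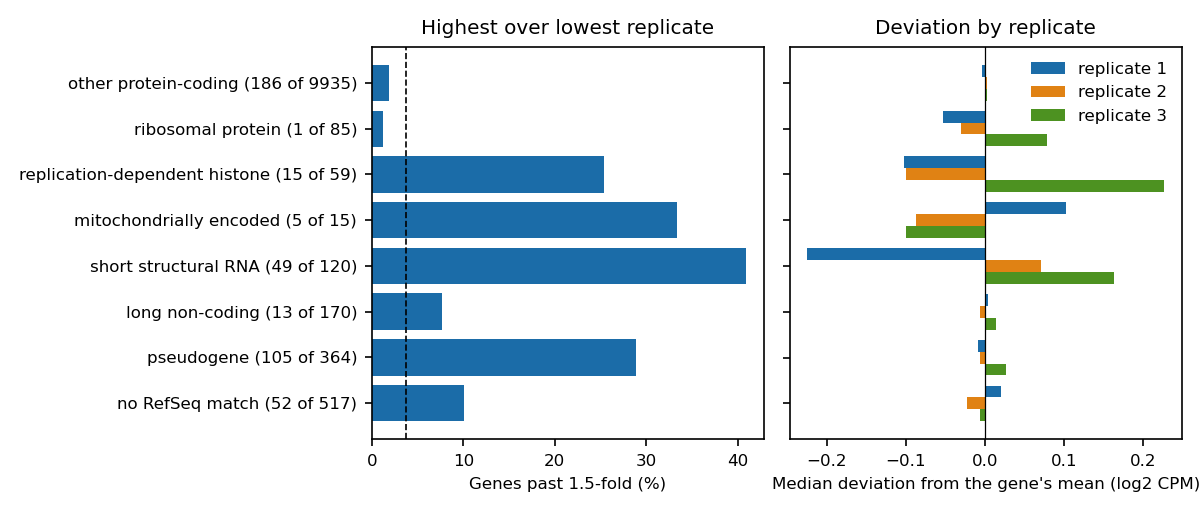
Left, the percent of genes of each class whose highest replicate was at least 1.5-fold above the lowest, with numbers past and measured in brackets and the 3.78% of all genes as a dashed line. Right, the median deviation of each replicate from the gene's mean of log2 CPM; histone genes stand at +0.23 in replicate 3.

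Promoter windows were read for the coding genes with a single start in the RefSeq table (GRCm38.p6), from 250 bases before the start to 50 bases from it. The CpG content, given as the number of CG steps over that anticipated from the base content, was ordered by level. Its median was 0.159 over 4163 genes listed at 0, 0.461 up to 1 TPM (3684 genes), 0.756 from 1 to 10 TPM (3234 genes), 0.836 from 10 to 100 TPM (2996 genes) and 0.877 from 100 TPM (325 genes). Over all promoters of the same length it was 0.486. Olfactory receptor genes had a median of 0.106. Genes share sequence by descent, so these are descriptions with no test.

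The CpG values of the pluripotency genes varied widely. Of the 16 core and naive genes with a listed promoter, 9 had a CpG value of at most 0.6 at every listed start. Among promoters with 1 start, 42.9% of all and 73.7% to 88.0% of those of coding genes in the classes from 1 TPM were over 0.6, as were 54.5% of the 11 naive genes with 1 start. The 16 genes were thus near the share of all promoters but below that of coding genes from 1 TPM, the classes to which all 16 belong. They were counted over every listed start and the other shares over promoters with 1 start, and no test was made. Nanog had 0.181 and 0.192 at its 2 starts, Esrrb 0.266 and 0.318, and Pou5f1 0.374 and 0.388, near the values of genes at 0 or under 1 TPM. Sox2 (0.819), Klf2 (0.889) and Klf4 (0.974) had high values. Shown are the 120 bases before the start (for genes with several starts, the first in genome order), with CG steps in capitals, for 4 pluripotency genes, for Suz12 as a highly expressed gene with many CG steps and for Praf2. All lie on the plus strand, at chr6:122707369-122707488, chr12:86360997-86361116, chr17:35505912-35506031, chr3:34649875-34649994, chr11:79992986-79993105 and chrX:7728451-7728570.
Nanog: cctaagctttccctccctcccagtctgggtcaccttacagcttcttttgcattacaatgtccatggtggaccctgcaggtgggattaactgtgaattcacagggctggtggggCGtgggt
Esrrb: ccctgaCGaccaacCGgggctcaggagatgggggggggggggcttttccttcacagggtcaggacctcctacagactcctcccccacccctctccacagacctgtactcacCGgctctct
Pou5f1: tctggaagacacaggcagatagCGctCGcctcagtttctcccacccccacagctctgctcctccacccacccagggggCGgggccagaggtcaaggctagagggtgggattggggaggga
Sox2: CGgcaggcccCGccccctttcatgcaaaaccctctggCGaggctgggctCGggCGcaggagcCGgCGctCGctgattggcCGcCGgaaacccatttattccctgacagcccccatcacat
Suz12: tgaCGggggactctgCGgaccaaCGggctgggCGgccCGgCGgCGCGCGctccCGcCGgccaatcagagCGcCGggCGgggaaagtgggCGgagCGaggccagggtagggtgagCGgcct
Praf2: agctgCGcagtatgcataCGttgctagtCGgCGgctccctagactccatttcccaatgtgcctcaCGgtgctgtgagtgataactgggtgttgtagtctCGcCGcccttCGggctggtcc
The stretches of Nanog, Esrrb and Pou5f1 hold 1, 3 and 3 CG steps, against 10 for Sox2, 17 for Suz12 and 8 for Praf2.

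A G-quadruplex pattern was searched on both strands as 4 runs of GGG with 1 to 7 bases between them, bases that may themselves be G. It was present in 280 of 4163 windows of genes listed at 0, or 6.73% (95% exact interval 5.98 to 7.53), and in 25.4% (24.0 to 26.8) of those up to 1 TPM. From there it did not climb with level, at 27.9% (26.3 to 29.4), 24.9% (23.4 to 26.5) and 27.7% (22.9 to 32.9) in the classes from 1, 10 and 100 TPM. Over all promoters it was 19.3%. The median GC content of the windows also differed, at 44.7% for genes listed at 0 and 56.7% to 61.7% in the other classes. The 927 windows of olfactory receptor genes had 35.0% GC and the pattern in 1.19%. Whether the pattern followed level apart from GC content was not tested. Ribosomal protein genes held the pattern in 4 of 56 windows and histone genes in 5 of 60. Of the 16 pluripotency genes 6 held it at a listed start, including the 3 core factors. The 120 bases of Praf2 printed above did not hold this pattern. Where the G4 deleted in the other RNA samples lies relative to them was not examined. Matches of Nanog (chr6:122707488-122707534, plus strand, before its second listed start), Pou5f1 (chr17:35506005-35506031, plus strand) and Zfp42 (chr8:43307069-43307109, minus strand) are shown with the match in capitals. That of Zfp42 is on the strand opposite to the gene and so reads here as runs of C.
Nanog: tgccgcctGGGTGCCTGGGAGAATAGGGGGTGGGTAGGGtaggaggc
Pou5f1: aggctagaGGGTGGGATTGGGGAGGGa
Zfp42: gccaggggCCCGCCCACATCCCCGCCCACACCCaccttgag
Such a match is a pattern of letters and does not show that a structure forms.

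**Figure D5:**
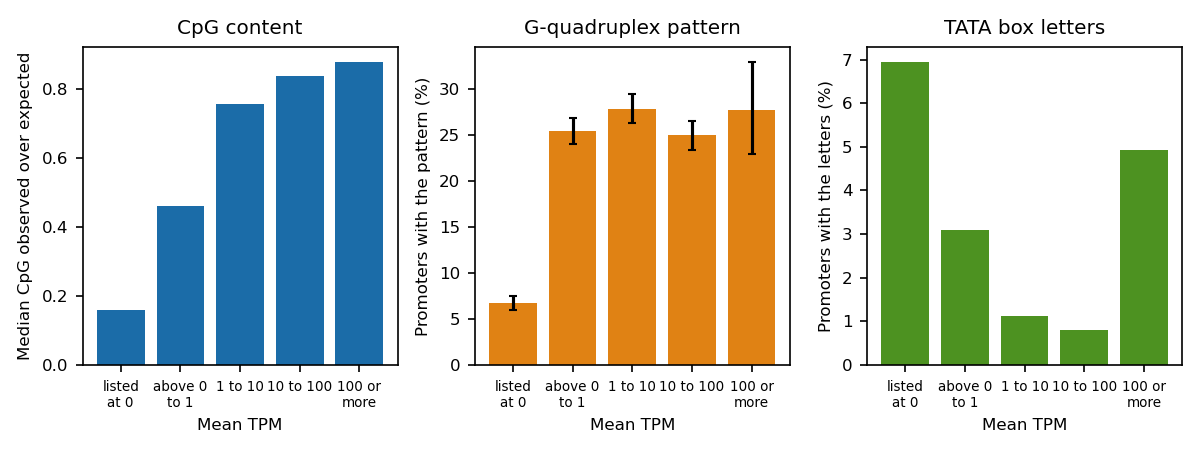
Bars give, for coding genes with 1 listed start in 5 classes of mean TPM, the median CpG observed over expected, the percent of promoter windows with the G-quadruplex pattern (error bars, 95% exact intervals) and the percent with TATAAA from 45 to 16 bases before the start. CpG content steps up from 0.159 to 0.877, and the G-quadruplex pattern steps up from 6.73% to 25.4% and then stays level.

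Classes of high level differed in the letters near their starts. TATAAA on the coding strand, from 45 to 16 bases before the start, was present in 15 of 60 histone windows (25.0%), against 3.33% of all coding windows and 3.01% of all promoters. In histone genes this box helps set the start of a short burst of transcription in S phase. It is shown in capitals in the 60 bases before the start of the 4 histone genes of highest mean TPM that hold it, on the plus strand at chr13:21717568-21717627, chr13:23571340-23571399, chr13:23581508-23581567 and chr13:23763608-23763667.
Hist1h3h: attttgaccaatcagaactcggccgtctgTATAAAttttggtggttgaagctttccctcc
Hist1h2bg: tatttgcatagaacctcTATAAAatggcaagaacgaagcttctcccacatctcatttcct
Hist1h4d: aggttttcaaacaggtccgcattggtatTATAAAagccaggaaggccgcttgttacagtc
Hist1h1a: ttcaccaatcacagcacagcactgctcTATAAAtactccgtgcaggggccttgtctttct
Hist1h3h had 943, 787 and 869 TPM and Hist1h4d 173, 128 and 166 TPM.

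Transcripts of ribosomal proteins are known to begin with a run of pyrimidines, which places their translation under control of growth signals. A run of at least 6 bases of C or T that reached within 5 bases of the start was present in 28 of 56 windows of ribosomal protein genes (50%), against 19.8% of all coding windows and 19.9% of all promoters. It is shown in capitals within the 15 bases on either side of the start for the 6 such genes of highest mean TPM, Rps2 (chr17:24720048-24720077, plus strand), Rpl6 (chr5:121204486-121204515, plus strand), Rps10 (chr17:27635230-27635259, minus strand), Rpl38 (chr11:114668565-114668594, plus strand), Rps27 (chr3:90213634-90213663, minus strand) and Rpl4 (chr9:64173372-64173401, plus strand), where the run of Rpl4 extends beyond the stretch.
Rps2: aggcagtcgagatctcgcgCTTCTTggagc
Rpl6: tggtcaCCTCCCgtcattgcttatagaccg
Rpl38: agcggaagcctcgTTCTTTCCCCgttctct
Rpl4: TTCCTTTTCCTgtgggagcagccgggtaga
Rps10: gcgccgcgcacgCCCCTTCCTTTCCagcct
Rps27: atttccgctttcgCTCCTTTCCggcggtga
The runs of Rpl6 and Rpl4 end before the start and that of Rps2 begins after it, so these do not cover the listed start. These genes had mean levels of 1062 TPM for Rps2, 1007 TPM for Rpl6, 597 TPM for Rps10, 678 TPM for Rpl38, 461 TPM for Rps27 and 614 TPM for Rpl4.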

How the data were processed

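RNA of 3 wildtype libraries was described, and the other 63 samples were not analysed here. The authors deposited 1 table of RSEM gene results per library. Its expected counts were estimated by the authors' tool and are not scaled for depth. The deposited TPM values are scaled to effective length and a fixed sum, and the deposited FPKM values to effective length and library size. Per the submitters' processing notes STAR, RSEM and the mm10 build were used, with no versions; the sources used here do not give the strand setting of the counting. Depth was 13360009 to 18549005 counts, which sets counting error only.

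Symbols were matched for 55141 of 55487 identifiers and RefSeq classes for 38559 (GRCm38.p6). Of IDs sharing a symbol, the 1 with most counts was used. Expected counts were rounded and scaled with TMM (edgeR 4.0.16, R 4.3.3; DESeq2 1.42.0 as an alternative), and the spread script was tested on simulated data. There is 1 group, so no test was made. Promoter windows were matched by symbol for 20897 genes, 17611 of them with 1 start; chromosome 18 was left out.

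The 66 gene lists (1416 entries, 18 not matched) and the alternatives were chosen with earlier results of these data known. Named genes were list members, members of small families, the highest genes by TPM and the most and least variable genes. Praf2, mitochondrial genes and their nuclear copies, single histone and ribosomal protein genes, and the TATAAA and pyrimidine searches were chosen later.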

Additional observations from a re-analysis of the deposited data

How the results depend on the processing

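The number of detected genes was 12795 and 9770 at a minimum of 0.5 and 2 TPM, 7390 at 5 TPM, 12048 by the mean of the 3 libraries and 13958 by at least 10 counts in each, against 11338, and 11443 to 11618 when 1 replicate was left out. Genes past the replicate fold numbered 418 with DESeq2 size factors, 1378 with TPM as deposited, 1229 at 1.3-fold, 115 at 2-fold, 2108 of 14707 with a mean of at least 10 counts and 119 of 8101 with at least 200, against 426 of 11265. Leaving out 1 replicate gave 175 (without replicate 1), 260 (without replicate 2) and 224 (without replicate 3), with fewer libraries compared. The common biological coefficient of variation was 0.0600 to 0.0662 under other count minimums and DESeq2 size factors, and 0.0518 without replicate 1, 0.0755 without replicate 2 and 0.0644 without replicate 3. With 1 to 12 bases allowed between runs, the G-quadruplex pattern was in 10.9%, 39.0%, 42.7%, 40.3% and 39.4% of the classes in order of level; with every listed start, chosen after seeing the data, in 7.36% to 30.5%. Of 198 list medians with 1 replicate left out, 188 moved by no more than their spread between replicates or by less than a small fixed amount. Leaving out 1 of 3 libraries moves a gene's mean by less than its spread by construction, so this is a weak check. Rescaling TPM without short and mitochondrial RNAs moved 63 of 65. FPKM rescaled to the sum of TPM moved none of 66, but it equals TPM by construction apart from rounding and so is no check. No paired analysis was possible because only 1 group was described. Depth limits genes under 1 TPM, whose replicate values rest on few counts, and the division of reads between near-identical genes limits histones, pseudogenes and mitochondrial genes.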
